A study of Mus musculus with 8 samples.

Results

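Prostaglandin synthesis and receptor genes were taken as 9 genes by symbol, Ptgs1, Ptgs2, Ptges, Ptgis, Hpgd, Ptger1, Ptger2, Ptger3 and Ptger4, and all 9 were present among the 32285 genes of the count matrices. They were read in 8 droplet libraries of the mouse colon, 2 for each of 4 groups. All cells came from C57BL/6 mice, and no altered allele is given for these libraries. The assembloid stroma and the assembloid epithelium are the EpCAM-negative and the epithelial cells of assembloids, in which colon organoids were combined with cultured primary colon stromal cells in Matrigel. Assembloids grew with EGF, A83-01, N-acetylcysteine, B27 and N2, but noggin, R-spondin 1, CHIR-99021 and Wnt surrogate were left out. The organoid epithelium grew without stroma in medium holding all of these factors. The tissue epithelium came from colon crypts released with EDTA and dithiothreitol, and was not cultured. The stromal cells had been expanded on plastic in serum before assembly and came from 2 mice. Assembloids were dissociated with Liberase TL and DNase I at 37 °C and then TrypLE, whereas organoids and tissue crypts were given TrypLE without these enzymes. Culture and dissociation thus differ between the groups together with the cell source, also between organoids and assembloids. Live cells of all groups were isolated by sorting.

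Prostaglandins are lipid signals made from arachidonic acid. The cyclooxygenases, Ptgs1, the constitutive enzyme, and Ptgs2, the inducible one, make prostaglandin H2, from which Ptges, microsomal prostaglandin E synthase, makes prostaglandin E2 and Ptgis, prostacyclin synthase, makes prostacyclin. Hpgd, 15-hydroxyprostaglandin dehydrogenase, oxidises prostaglandin E2 and ends its action. The receptors EP1 to EP4 (Ptger1, Ptger2, Ptger3 and Ptger4) bind prostaglandin E2, EP2 and EP4 raising cyclic AMP and EP3 mostly lowering it. In the gut, prostaglandin E2 from mesenchymal cells is known to act on crypt epithelium through EP4, and tuft cells are known to express Ptgs1.

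After cells with fewer than 500 genes or more than 10% of counts from mitochondrial genes were left out, the libraries kept 4310 to 29410 cells and 36970661 to 187583982 UMIs (unique molecular identifiers, counted molecules). The median cell held 3444 UMIs in the shallowest library, tissue replicate 1, and 35219 in the deepest, organoid replicate 1. In tissue 38.7% and 25.4% of the barcodes were kept, against 55.1% to 96.1% elsewhere. The cell numbers are not those of the study's own filtered sets, which were not rebuilt. Libraries of any pair shared 13 to 141 barcodes, at most 0.98% of the smaller one. Cells were assigned by detected marker genes and the UMIs of their lists, and names ending in -like rest on these markers alone. For colonocyte-like and goblet-like cells part of the cut was set per library. The epithelial gate kept 99.4% and 99.6% of the cells in tissue and 88.4% to 99.8% in the cultures. The stromal libraries were 85.5% and 94.6% fibroblast-like, but in replicate 1 a further 9.14% were squamous-like cells carrying epithelial markers. Levels are given as CPM, UMIs per 1000000 UMIs of the same cells, one value per library, and calls are adjusted p-values under 0.05 from the quasi-likelihood test of edgeR over all genes tested. The study's methods call the libraries of a group biological replicates, and p-values between groups measure the spread between them. In tests between classes the library was a block. There p-values measure how far class differences vary between libraries, pooled over the classes of the fit, and not the spread between libraries.

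**Figure D1:**
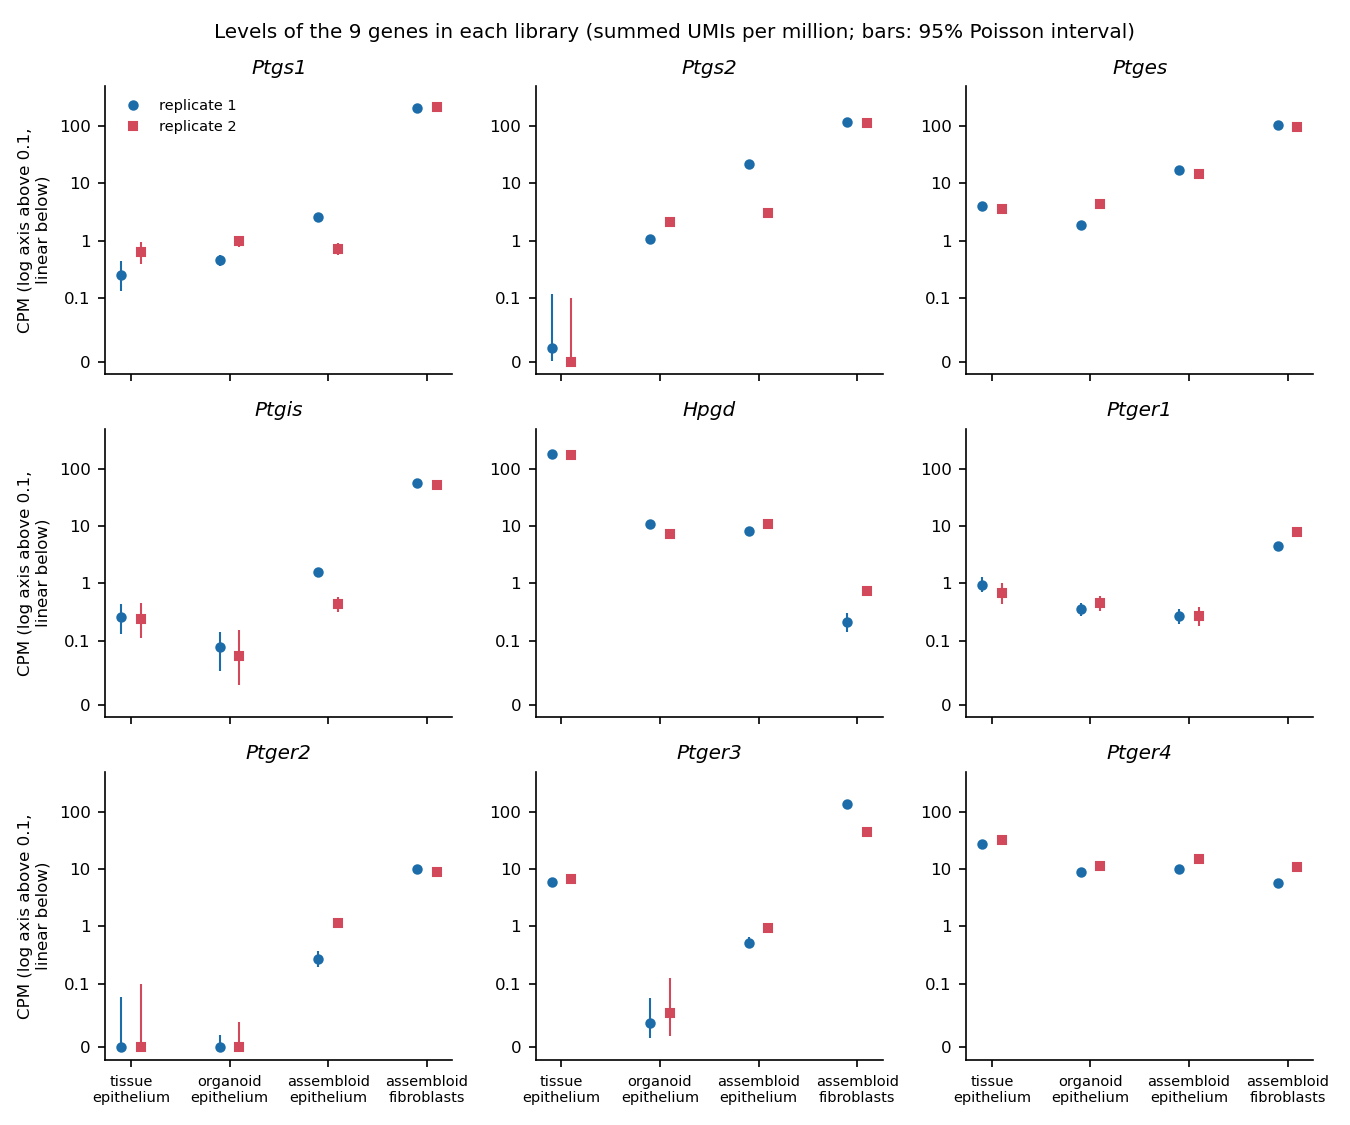
Level of each of the 9 genes in each of the 8 libraries, in CPM on an axis that is log above 0.1 and linear below, in epithelial-gated cells of the tissue, organoid and assembloid epithelium and in fibroblast-like cells of the assembloid stroma. Points are libraries, 2 per group, and bars are 95% Poisson intervals. Hpgd is highest in both tissue libraries (185 and 172), and Ptgs1, Ptgs2, Ptges, Ptgis and Ptger2 are highest in both stromal libraries.

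The genes fell into opposite patterns. Of the 3 epithelia and the fibroblast-like cells of the stroma, tissue epithelium held the most Hpgd, which breaks prostaglandin E2 down, and the fibroblast-like cells held the most Ptgs1, Ptgs2, Ptges and Ptgis, which make prostaglandins. Of the receptors, Ptger4 was highest in tissue epithelium and Ptger1, Ptger2 and Ptger3 in the fibroblast-like cells. Both culture epithelia held less Hpgd, Ptger3 and Ptger4 than tissue, and assembloid epithelium held more Ptgs2 and Ptges than tissue. Levels in the stromal and the epithelial libraries were set side by side without a test, because Cell Ranger 6.0.1 counted the former and 7.1.0 the latter.

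The promoters of the 2 cyclooxygenase genes and of Hpgd, which lay at the opposite ends of these patterns, are shown as the 250 bases before the RefSeq start (GRCm38.p6), 5′ to 3′ on the strand of the gene. Capitals mark a GC box (GGGCGG on either strand) or the letters TTGCNNAA on either strand, a C/EBP-like pattern.
Ptgs1: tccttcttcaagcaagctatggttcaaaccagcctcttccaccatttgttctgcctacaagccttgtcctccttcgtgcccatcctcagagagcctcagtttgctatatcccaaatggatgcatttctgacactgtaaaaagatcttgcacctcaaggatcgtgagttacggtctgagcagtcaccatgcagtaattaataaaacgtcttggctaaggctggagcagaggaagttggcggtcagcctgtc
Ptgs2: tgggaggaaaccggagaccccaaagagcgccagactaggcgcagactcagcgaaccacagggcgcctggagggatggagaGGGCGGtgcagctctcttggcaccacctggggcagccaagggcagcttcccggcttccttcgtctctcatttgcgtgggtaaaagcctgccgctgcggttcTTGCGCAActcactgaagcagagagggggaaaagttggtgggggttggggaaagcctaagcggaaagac
Hpgd: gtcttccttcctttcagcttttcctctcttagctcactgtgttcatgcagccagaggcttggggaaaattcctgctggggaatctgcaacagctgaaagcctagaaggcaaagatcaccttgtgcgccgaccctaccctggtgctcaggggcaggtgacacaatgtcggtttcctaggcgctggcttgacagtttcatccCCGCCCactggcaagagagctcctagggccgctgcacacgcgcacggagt

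The windows lie at chr2:36230176-36230425 (Ptgs1), chr1:150099781-150100030 (Ptgs2) and chr8:56294302-56294551 (Hpgd), all on the plus strand. Each ends at the base before the RefSeq start. The Ptgs1 and Ptgs2 windows also end directly before the gene's start in GENCODE, and the Hpgd window lies a short way further upstream of it. The Ptgs2 window held a GC box 170 to 165 bases before the start and TTGCNNAA at 69 to 62, the Hpgd window held a GC box on the other strand at 50 to 45, and none of the letters searched were found in the Ptgs1 window. Of 32851 such windows over all genes, 32.7% held GGGCGG, 9.56% TTGCNNAA, 12.4% TATAAA, 17.8% TGACG and 6.02% CACGTG, each searched on both strands, and the last 3 were found in none of these windows. A match is a match of letters and was not tied to any binding. Bases after the RefSeq start were not searched, so letters absent from a window may lie there. Windows were found for 7 of the 9 genes. GC boxes were also present for Ptges (2), Ptger3 (3) and Ptger4 (4), and the Ptger2 window, the richest in A and T with 38.0% G and C, held none of these letters.

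Hpgd (ENSMUSG00000031613, chromosome 8, 56294585 to 56321043, GRCm38) was higher in both tissue libraries than in any culture library. Epithelial-gated cells of tissue held 185 and 172 CPM (8684 and 6359 UMIs), those of organoids 10.8 and 7.35, and those of assembloids 8.29 and 11.0. The culture libraries did not overlap with tissue but overlapped with each other. Hpgd was lower than in tissue by 3.83 ± 0.32 (log2 fold change ± SE) in assembloids, an adjusted p of 6.6e-05 with edgeR, and by 4.03 ± 0.32 in organoids, an adjusted p of 4.5e-05. Between organoids and assembloids the log2 difference was -0.20 ± 0.29, which was not called (edgeR, adjusted p = 0.59). Without organoid replicate 1 it was -0.71 and was called (adjusted p = 0.030). After each cell was thinned to 2000 UMIs, Hpgd was detected in 26.0% and 24.5% of tissue cells, 2.19% and 1.61% of organoid cells and 1.58% and 1.94% of assembloid cells, and unthinned in 43.7% and 44.3%, 25.8% and 6.90%, and 3.72% and 10.4%. In fibroblast-like cells of the stroma, a cell type in which Hpgd was near 0 (0.21 and 0.75 CPM), the share was 0.324% and 0.771% of cells unthinned. These are separate libraries with little Hpgd, so this share does not give the background of droplets in the epithelial libraries. Median depths of the gated cells were 3638 and 3702 UMIs in tissue, 35240.0 and 7603 in organoids, 3531 and 13898 in assembloids, and 14953 and 13244 in stroma.

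**Figure D2:**
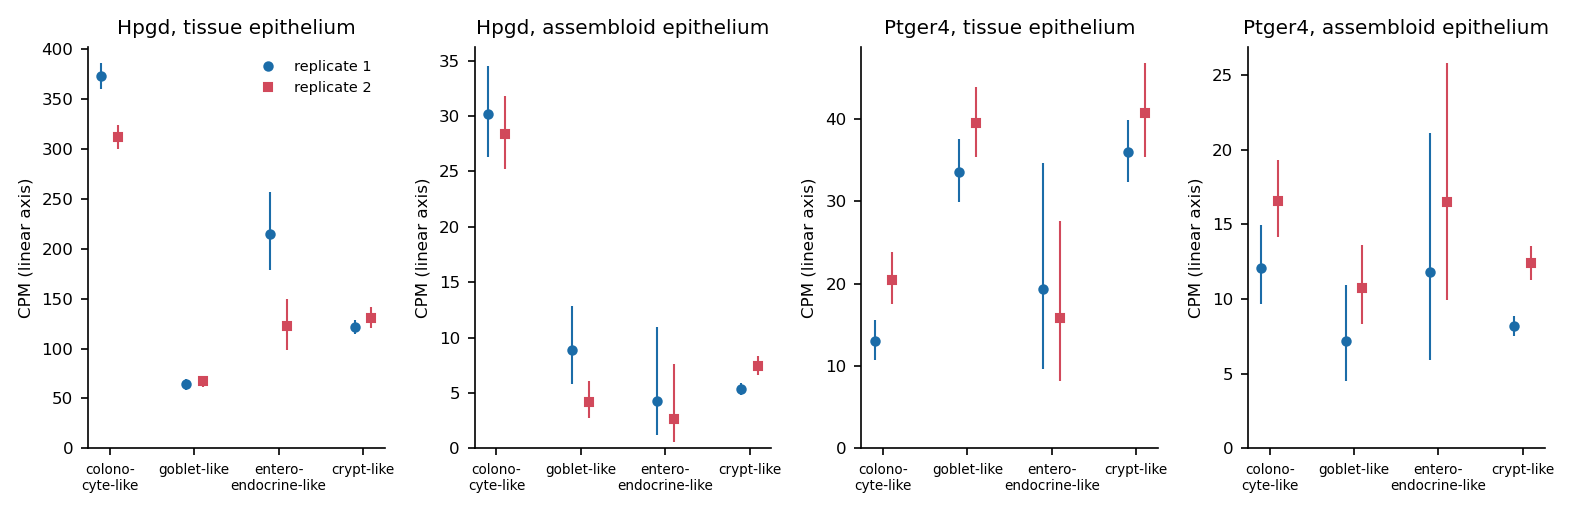
Level of Hpgd and Ptger4 in CPM, on linear axes of their own, by marker-gated epithelial class (colonocyte-like, goblet-like, enteroendocrine-like, crypt-like) in tissue and assembloid libraries. Points are libraries, 2 per class, and bars are 95% Poisson intervals. Hpgd is highest in the colonocyte-like cells of every library, and Ptger4 is lower in colonocyte-like than in crypt-like cells of both tissue libraries and higher in both assembloid libraries.

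Within the epithelium, Hpgd was highest in colonocyte-like cells, which carry markers of absorptive differentiation, in both tissue and assembloids. In tissue, colonocyte-like cells held 373 and 312 CPM, crypt-like cells, which carry stem or cycling markers, 122 and 131, and goblet-like cells 64.0 and 67.0. In assembloids, colonocyte-like cells held 30.2 and 28.4, crypt-like cells 5.34 and 7.46, and goblet-like cells 8.86 and 4.16. In both groups the colonocyte-like values lay above all crypt-like values. The difference of colonocyte-like from crypt-like cells was 2.01 ± 0.14 (log2, edgeR, adjusted p = 1.1e-09) in tissue and 2.65 ± 0.31 (edgeR, adjusted p = 0.00046) in assembloids. Assembloid colonocyte-like cells thus stayed below tissue crypt-like cells in Hpgd. How much of the Hpgd in tissue crypt-like and goblet-like cells comes from RNA of other cells in the droplets was not tested. Only 9 and 2 organoid cells passed the colonocyte gate, and they were not tested.

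Of the 5 members with enough UMIs for the fit in tissue, Hpgd was called higher and Ptger4 lower in colonocyte-like cells, while 31.5% of all genes tested were called higher and 31.1% lower. In assembloids, Hpgd and Ptger4 were both called higher among 8 tested, against 16.5% of all genes higher and 12.0% lower. Calls between these classes were thus common among all genes.

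Ptgs2 (ENSMUSG00000032487, chromosome 1, 150100031 to 150108227), the inducible cyclooxygenase, was almost undetected in tissue epithelium, with 1 UMI in 4664 cells and 0 in 4294, a count of 0 that allows a level of up to 0.081 CPM. Its level was 1.05 and 2.14 CPM in organoid epithelium and 21.7 and 3.01 in assembloid epithelium, so the assembloid libraries differed from each other more than the organoid libraries did. Summed over libraries, assembloid cells held 1195 times the tissue level, with a counting interval of 214 to 47222, and organoid cells 118 times, with an interval of 21.1 to 4682. Most of the assembloid UMIs came from replicate 1 (3522 of 3845), without which the ratio was 252, and without assembloid replicate 2 it was 1818. Leaving out an organoid library gave 179 or 88.1 times. In organoid replicate 1, 41 of the 197 Ptgs2 UMIs came from 1 cell. Without tissue replicate 2 the ratios were 669 and 66.2, and without tissue replicate 1, which holds the single UMI, assembloids held at least 175-fold and organoids at least 17.3-fold more (floor of 3 UMIs). Both differences were called (edgeR, adjusted p = 0.00091 and 0.0080), and their fitted fold changes rest on the single tissue UMI. Organoids lay below assembloids by 3.25 ± 0.83 on the log2 scale (edgeR, adjusted p = 0.011). Without assembloid replicate 1 this difference fell to -1.05 and was not called (edgeR, adjusted p = 0.061), and without either organoid library it was not called (adjusted p = 0.10 and 0.069). After thinning, Ptgs2 was seen in 5.02% and 0.472% of assembloid and in 0.175% and 0.359% of organoid epithelial cells. Unthinned, the shares were 9.46% and 2.55%, and 1.98% and 1.47%.

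**Figure D3:**
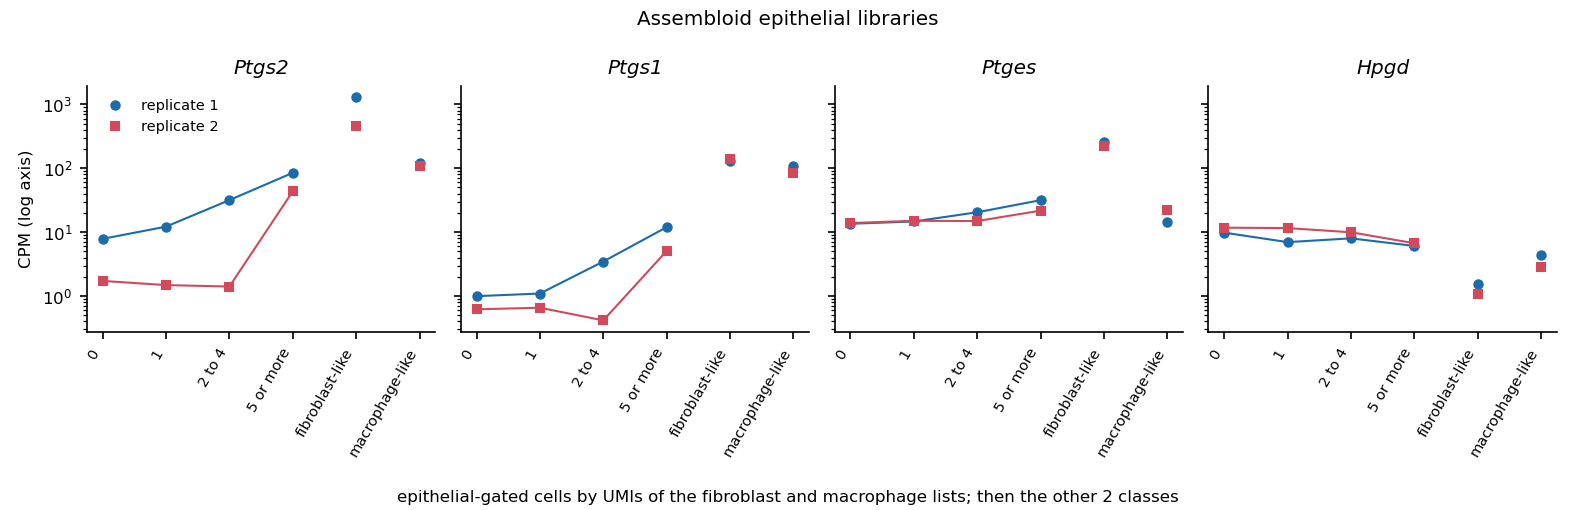
Ptgs2, Ptgs1, Ptges and Hpgd in epithelial-gated cells of the 2 assembloid libraries, in CPM on a log axis, by the number of UMIs of the fibroblast and macrophage marker lists found in the same cell (0, 1, 2 to 4, 5 or more), beside the fibroblast-like and macrophage-like cells of the same libraries. Points are libraries. Ptgs2 rises from 7.85 to 84.9 in replicate 1 and stays at 1.41 to 1.72 up to 4 such UMIs in replicate 2, where it is 43.6 at 5 or more.

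Stromal marker UMIs moved with Ptgs2 inside the assembloid epithelium. Per 10000 UMIs of epithelial-gated cells, those of the fibroblast list numbered 1.77 and 0.354 in assembloids. The list stood at 0.00805 and 0.0122 in organoids, and at 0.00298 and 0.00407 for the tissue libraries. In replicate 1 the Ptgs2 level was 7.85 CPM in the 12031 epithelial cells with no UMI of the fibroblast and macrophage lists, 12.2 at 1 such UMI, 31.7 at 2 to 4 and 84.9 at 5 or more. In replicate 2 it was 1.72, 1.48, 1.41 and 43.6, and thus rose only at 5 or more. Of the 163 Ptgs2 UMIs there, 55 came from 1 cell, which held 41 UMIs of the fibroblast list. In the cells with 5 or more, Ptgs2 stood at 89.9 and 111 UMIs per 1000 UMIs of the fibroblast list, beside 112 and 39.4 in the fibroblast-like cells of the same libraries. The cells with no stromal marker UMI, 12031 and 3122 in number, still held at least 150-fold more Ptgs2 than tissue cells with none, in which 0 UMIs were found (floor of 3 UMIs over the group), and the difference was called there too. Replicate 1 held 537 of these 601 UMIs, and without it the bound was 45.4-fold. Without tissue replicate 1 it was 66.8-fold and without tissue replicate 2 it was 83.4-fold. In replicate 2 their 1.72 CPM lay within the range of the organoid libraries. How much of the epithelial Ptgs2 comes from stromal RNA in droplets was not tested.

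The highest Ptgs2 of any class was found in the fibroblast-like cells captured in the assembloid epithelial libraries, with 1295 and 457 CPM (6638 and 3009 UMIs in 794 and 554 cells). In the fibroblast-like cells of the stromal libraries it was 119 and 112 (15722 and 14742 UMIs). Ptgs2 was thus higher in both libraries of the former than in either of the latter, a difference that cannot be told apart from that of the Cell Ranger versions and the sort. Macrophage-like cells of the assembloid libraries held 121 and 108 CPM in 218 and 215 cells. Within the stroma, telocyte-like cells held 144 and 139 CPM and trophocyte-like cells 149.6 and 135, with a log2 difference of -0.06 ± 0.19 (edgeR, adjusted p = 0.88). Contractile-like cells held 174 and 118, but 3 of the 96 cells of replicate 1 held 200 of its 475 UMIs, and without the 3 highest cells of each library the levels were 100.5 and 77.2.

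Ptgs1 (ENSMUSG00000047250, chromosome 2, 36230426 to 36252272), the constitutive cyclooxygenase, was a stromal gene with 209 and 215 CPM in fibroblast-like cells, 84.2% and 81.5% of which held a UMI (median depths 14953 and 13244 UMIs). In glia-like cells of the same libraries, which stood at 33.8 and 49.1 CPM, the share was 12.9% and 15.9% (7121 and 7663 UMIs). Thinned to 2000 UMIs, the shares were 31.2% and 30.6% in fibroblast-like and 3.88% and 3.75% in glia-like cells. It was 0.26 and 0.62 CPM in tissue epithelium, 0.45 and 0.97 in organoids, and 2.63 and 0.73 in assembloids. Assembloid replicate 1 stood above all other epithelial libraries and replicate 2 lay between the organoid libraries. The difference between assembloid and tissue was called at 2.41 ± 0.75 (edgeR, adjusted p = 0.028), but it was 1.06 without assembloid replicate 1 (adjusted p = 0.18) and 1.29 in cells with no stromal marker UMI (adjusted p = 0.11), and was not called in either case. It was also not called without tissue replicate 1 (1.85, edgeR, adjusted p = 0.16) or without organoid replicate 2, which entered the shared spread (adjusted p = 0.058). Organoids against assembloids gave -1.52 ± 0.70 (edgeR, adjusted p = 0.096), which was called only when assembloid replicate 2, the low one, was left out (-2.19, adjusted p = 0.0043), when the filter on low counts was dropped (-1.48, adjusted p = 0.020) or when cells were not gated (-3.95, adjusted p = 5.5e-05). In replicate 1, Ptgs1 rose from 0.99 CPM in cells with no stromal marker UMI to 12.0 in cells with 5 or more, where it stood at 12.7 UMIs per 1000 of the fibroblast list, beside 11.2 in the fibroblast-like cells. In replicate 2 these ratios were 12.9 and 12.0.

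In tissue epithelium, tuft-like cells held most of the little Ptgs1 that was found. The 12 tuft-like cells of replicate 1 held 7 of its 12 epithelial UMIs (37.9 CPM), and the 29 of replicate 2 held 15 of 23 (68.6 CPM). In tissue colonocyte-like cells, 471 and 541 in number, Ptgs1 had 0 UMIs, and in crypt-like cells 2 and 1. Tuft-like cells, the sentinel cells of the gut epithelium, held 0 UMIs of Ptgs2, Ptges and Ptgis in both libraries, which with so few cells allows levels of up to 16.2 and 13.7 CPM. They held 168 and 274 CPM of Hpgds, hematopoietic prostaglandin D synthase, 135 and 297 of Ltc4s, leukotriene C4 synthase, and 114 and 192 of Alox5ap, the activating protein of 5-lipoxygenase, which were named after their values were seen. Phospholipases were present too, with 59.5 and 133 CPM of Pla2g4a and 108 and 91.4 of Pla2g10. They were not particular to tuft-like cells. All epithelial-gated cells of tissue held 70.8 and 61.2 CPM of Pla2g4a and 168 and 170 of Pla2g10. Ptgds, Tbxas1, Alox12, Alox15 and Ggt5 had 0 UMIs in tuft-like cells, under the same limit. With fewer than 20 tuft-like cells in replicate 1 no test was made.

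**Figure D4:**
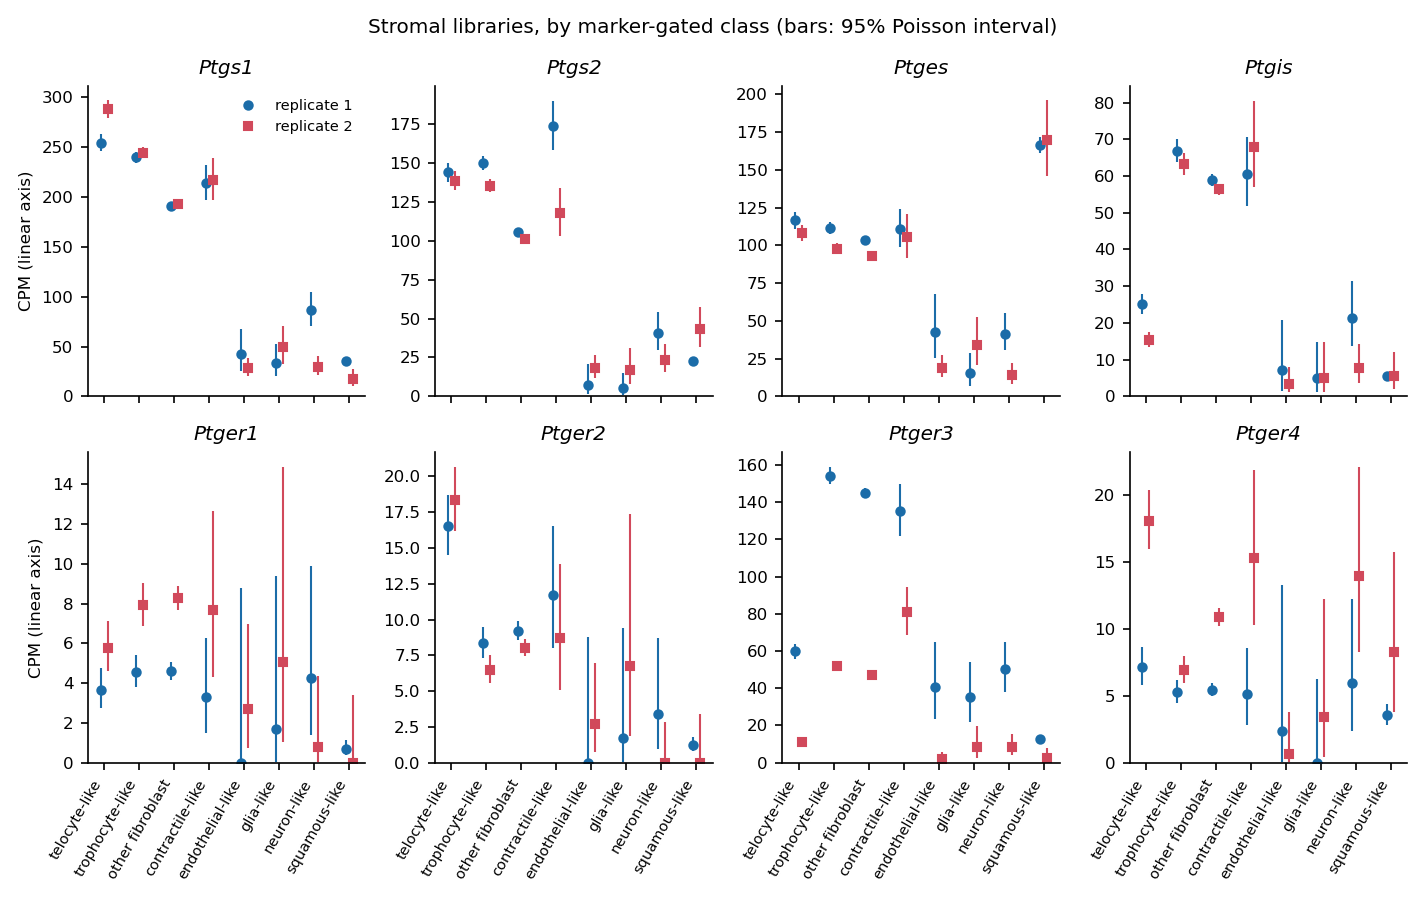
Levels of the 8 members other than Hpgd in CPM, on linear axes, by marker-gated class of the 2 assembloid stroma libraries. Points are libraries, and bars are 95% Poisson intervals of their counts. Ptgis and Ptger3 are higher in trophocyte-like than in telocyte-like cells of the same library, Ptger2 the other way round.

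Ptges (ENSMUSG00000050737, chromosome 2, 30889471 to 30929863), which makes prostaglandin E2, was higher in assembloid epithelium than in the other epithelia. It held 17.1 and 14.8 CPM there, 3.98 and 3.63 in tissue and 1.88 and 4.36 in organoids. Both assembloid libraries lay above the other 4. The log2 differences were 2.47 ± 0.32 from tissue (edgeR, adjusted p = 0.00056) and -2.59 ± 0.32 for organoids against assembloids (adjusted p = 0.00046), while organoids and tissue did not differ beyond their spread (-0.12 ± 0.31, adjusted p = 0.78). In assembloid cells with no stromal marker UMI, Ptges stood at 13.5 and 13.9 CPM and was called there as well. It was higher in cells with 5 or more such UMIs, at 31.6 and 21.7 CPM, and stood at 255 and 223 in the fibroblast-like cells of the same libraries, so stromal marker UMIs moved with it too, and their part in its level was not tested. In assembloids, colonocyte-like cells held 13.0 and 11.1 CPM and crypt-like cells 15.2 and 15.6, and the scaled log2 difference, 0.10 ± 0.24, had the opposite sign and was not called (edgeR, adjusted p = 0.79). In the stroma, Ptges was 106 and 95.5 CPM in fibroblast-like cells and 166 and 169.7 in squamous-like cells, 824 in replicate 1 and 35 in replicate 2, the highest of the stromal classes.

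Ptgis (ENSMUSG00000017969, chromosome 2, 167191805 to 167240604), prostacyclin synthase, stood at 56.8 and 53.2 CPM in fibroblast-like cells of the stroma and was below 2 CPM in every epithelial library. The epithelial levels were 1.59 and 0.44 CPM in assembloids, 0.26 and 0.24 in tissue and 0.091 and 0.076 in organoids, and the UMIs behind them were 258 and 47, 12 and 9, and 17 and 7. The call between assembloid and tissue, 2.47 ± 0.73 (edgeR, adjusted p = 0.022), was lost without assembloid replicate 1 (1.11, adjusted p = 0.15) and without either tissue library (adjusted p = 0.11 and 0.10). The organoid level was lower than that of assembloids by 3.77 ± 0.74 on the log2 scale (edgeR, adjusted p = 0.0035). Among fibroblasts, trophocyte-like cells (66.9 and 63.2 CPM) held more Ptgis than telocyte-like cells (25.0 and 15.4). The former were gated on a list with Cd34 and Rspo3, the latter on a list with Foxl1 and Bmp genes. No single gene of a list was required. Telocyte-like cells were lower by 1.75 ± 0.17 (log2, edgeR, adjusted p = 1.5e-05).

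Ptger4 (ENSMUSG00000039942, chromosome 15, 5206661 to 5244187), the EP4 receptor, was the receptor with the most epithelial UMIs in every group. Tissue epithelium held 27.6 and 31.8 CPM, organoids 8.91 and 11.4 and assembloids 10.0 and 14.9. Tissue lay above both cultures, which overlapped. As plain log2 ratios of mean CPM without TMM scaling, the differences from tissue were -1.25 in assembloids and -1.55 in organoids. For assembloids against tissue the scaled, fitted values lay above the plain ratios, here and for Hpgd (plain ratio -4.21), Ptgs1 (1.93) and Ptges (2.07). Ptger4 was lower than in tissue by 0.88 ± 0.20 (log2) in assembloids (edgeR, adjusted p = 0.0076) and by 1.33 ± 0.20 in organoids (adjusted p = 0.0011). Without assembloid replicate 1 the former was -0.69 and was not called (adjusted p = 0.056), and without tissue replicate 2 it was -0.77 (adjusted p = 0.085).

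The order of the gated colonocyte-like and crypt-like classes in Ptger4 differed between tissue and assembloids. Most assembloid epithelial cells, 19236 and 4250, were in no class and are not part of this contrast. In tissue, crypt-like cells held 36.0 and 40.8 CPM, goblet-like cells 33.6 and 39.5, and colonocyte-like cells 13.0 and 20.5, so that colonocyte-like cells were the lowest of these 3. In assembloids, crypt-like cells held 8.16 and 12.4 CPM and colonocyte-like cells 12.1 and 16.6, so that within each library colonocyte-like cells were higher. The difference of colonocyte-like from crypt-like cells was -0.65 ± 0.15 (log2, edgeR, adjusted p = 0.00093) in tissue and 0.96 ± 0.27 (adjusted p = 0.026) in assembloids, where it was not called without the block for the library (adjusted p = 0.066). The test of the difference between these contrasts, added after the data were seen, gave 1.64 ± 0.23 (edgeR, adjusted p = 0.00091). Of the 4 members in that test, 2 were called higher in assembloids (Ptger4 and Hpgd) and 1 lower (Ptger3, a call that DESeq2 did not make and that turned to 0.61 with 1 more marker required), beside 14.6% of all genes higher and 11.7% lower. As plain CPM ratios without scaling between classes, colonocyte-like cells differed from crypt-like cells in Ptger4 by -1.46 and -0.99 (log2) in the tissue libraries and by 0.57 and 0.42 in the assembloid libraries, so that TMM scaling moved both contrasts upwards but did not set their direction. The colonocyte-like levels of the 2 groups overlapped, and the crypt-like level in assembloids was at 8.16 and 12.4 against 36.0 and 40.8 CPM in tissue.

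Ptger3 (ENSMUSG00000040016, chromosome 3, 157566892 to 157645888), the EP3 receptor, was present in tissue epithelium at 5.94 and 6.61 CPM, and was at 0.037 and 0.054 in organoids (7 and 5 UMIs) and 0.52 and 0.93 in assembloids (84 and 100 UMIs). In assembloid replicate 2, 56 of the 100 UMIs came from 1 cell. Organoids lay below tissue by 6.87 ± 0.46 on the log2 scale (edgeR, adjusted p = 2.2e-05), the largest fitted difference among the epithelial groups for a member with UMIs in every library, and below assembloids by 4.12 ± 0.44 (adjusted p = 0.00025). Assembloids lay below tissue by 2.75 ± 0.36 (adjusted p = 0.00054). Within tissue, colonocyte-like (5.12 and 4.79 CPM), crypt-like (5.05 and 4.67) and goblet-like cells (5.67 and 7.20) held levels within this narrow range. In the stroma the libraries disagreed, with 138 CPM in fibroblast-like cells of replicate 1 and 44.0 in those of replicate 2. Fibroblast-like cells captured in the assembloid epithelial libraries held only 8.59 and 10.47 CPM. This difference cannot be told apart from that of the Cell Ranger versions and the sort.

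Ptger2 (ENSMUSG00000037759, chromosome 14, 44988195 to 45003820), the EP2 receptor, had 0 UMIs in the epithelial-gated cells of both tissue and both organoid libraries. Stromal fibroblast-like cells held 9.83 and 8.85 CPM. Assembloid epithelium held 44 UMIs (0.27 CPM) in replicate 1 and 124 (1.16 CPM) in replicate 2, and 115 of the latter came from 1 crypt-like cell and 120 from 3 cells. Without those 3 cells replicate 2 stood at 0.037 CPM. Summed, assembloids held at least 17.4-fold more than tissue against the floor of 3 UMIs per group, and at least 4.97-fold more without the 3 cells. The latter bound rests on replicate 1, since replicate 2 alone gave 1.04-fold without those cells. In replicate 1, 10 of the 44 UMIs came from 1 crypt-like cell and 16 from 3 cells, without which it stood at 0.17 CPM. These cells of replicate 1 were not left out of any bound. With all cells the bound was 7.57-fold from replicate 1 alone and 32.3-fold from replicate 2 alone, 7.66-fold without tissue replicate 1 and 9.75-fold without tissue replicate 2. The call against tissue (edgeR, adjusted p = 0.0052) and that against organoids (adjusted p = 0.0022) were not made by DESeq2 (adjusted p = 0.17 and 0.097).

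Ptger1 (ENSMUSG00000019464, chromosome 8, 83666678 to 83672753), the EP1 receptor, was low everywhere. Its epithelial level was 0.96 and 0.68 CPM in tissue, 0.35 and 0.45 in organoids and 0.27 and 0.27 in assembloids, from 25 to 66 UMIs a library. Both culture groups lay below tissue without overlap, but neither difference was called (-1.20 ± 0.45, edgeR, adjusted p = 0.057, in assembloids and -0.81 ± 0.45, adjusted p = 0.17, in organoids). In cells with no stromal marker UMI the assembloid difference was -1.58 and was called (edgeR, adjusted p = 0.042). Fibroblast-like cells of the stroma held 4.49 and 7.92 CPM.

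**Figure D5:**
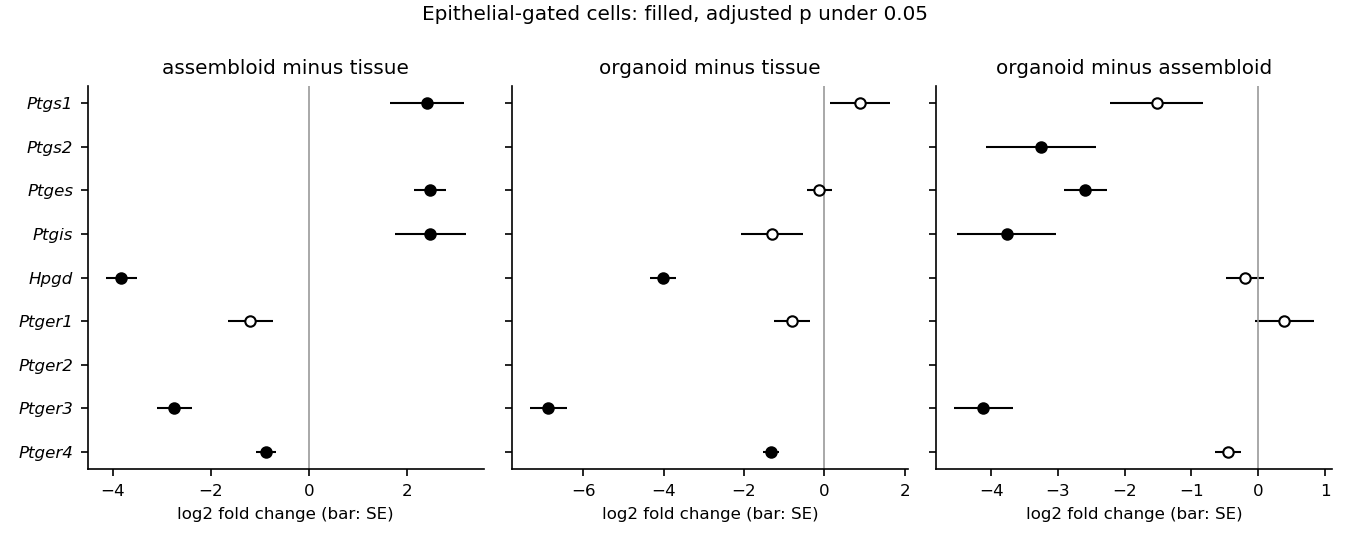
Log2 fold changes with standard errors of the members in the 3 contrasts among epithelial libraries, assembloid against tissue, organoid against tissue and organoid against assembloid. Filled points are called at an adjusted p under 0.05 with edgeR, and Ptgs2 against tissue and Ptger2, whose fitted changes rest on groups with 0 or 1 UMI, are not drawn. Hpgd, Ptger3 and Ptger4 lie below 0 in both contrasts with tissue.

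Counted over the 9 genes, 5 were called higher in assembloid than in tissue epithelium (Ptgs1, Ptgs2, Ptges, Ptgis and Ptger2) and 3 lower (Hpgd, Ptger3 and Ptger4), beside 26.6% of all genes tested called higher and 23.1% lower. Without assembloid replicate 1, Ptgs1, Ptgis and Ptger4 were not called. Ptgs1 was also not called in cells with no stromal marker UMI, and DESeq2 did not call Ptger2. In organoids against tissue, 1 was called higher (Ptgs2) and 3 lower (Hpgd, Ptger3 and Ptger4), beside 24.1% and 22.8%. In organoids against assembloids 0 were called higher by edgeR, with 0 higher at an unadjusted p under 0.05, and 5 were called lower (Ptgs2, Ptges, Ptgis, Ptger2 and Ptger3), beside 24.2% and 28.5%. The 3 contrasts share libraries. The median log2 fold change of the members was 2.41, -0.81 and -2.59, beside 0.03, 0.06 and -0.01 over all genes tested. The first of these medians is the value of Ptgs1, and it was computed with all libraries only.

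Between telocyte-like and trophocyte-like cells of the stroma, 4 of 8 members tested were called. Telocyte-like cells numbered 652 and 679 and trophocyte-like cells 1421 and 1581. Most fibroblast-like cells, 5635 and 6299 of 7708 and 8559, were in neither class. Telocyte-like cells were higher in Ptger2 (16.5 and 18.3 CPM against 8.32 and 6.49 in trophocyte-like cells, 1.19 ± 0.19 log2, edgeR, adjusted p = 0.00073) and Ptger4 (7.15 and 18.1 against 5.27 and 6.93, 0.92 ± 0.20, adjusted p = 0.0080). They were lower in Ptgis and in Ptger3 (59.8 and 11.1 against 154 and 51.8, -1.74 ± 0.27, adjusted p = 0.00072). In each of these genes the order was the same within both libraries. All genes tested were called higher in 6.15% and lower in 7.64%. Without a block for the library, Ptgis alone remained called, and with 1 more marker required for each class Ptger4 was not called (0.61, adjusted p = 0.27).

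Contractile-like cells, 96 and 83 in number, were not called different from fibroblast-like cells, the mean of the telocyte-like, trophocyte-like and other fibroblast-like classes, in any member by edgeR (0 of 8 called, beside 1.54% of all genes higher and 0.32% lower). Ptgis and Ptger3 had an unadjusted p under 0.05, and DESeq2 called none. With 1 more marker required, Ptgs2 was lower (-1.34, edgeR, adjusted p = 0.013). The fibroblast list stood at 77.6 and 90.7 UMIs per 10000 in these cells, beside 83.8 and 119 in fibroblast-like cells.

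The non-fibroblast classes of the stroma held less of most members. Endothelial-like cells (28 and 69) were lower in 7 of 8, all but Ptger1 (16.2% of all genes higher, 15.6% lower), for example in Ptgs2 with 7.15 and 18.3 CPM (-3.01 ± 0.31, edgeR, adjusted p = 7.1e-06). Glia-like cells (70 and 63) were lower in 5 of 8, Ptgs1, Ptgs2, Ptges, Ptgis and Ptger3 (14.9% and 11.8%), and neuron-like cells (58 and 88) in 6 of 8, the same 5 and Ptger2 (23.3% and 21%). Fibroblast marker UMIs were present in these classes too, at 40.9 and 15.2 per 10000 in endothelial-like, 25.1 and 34.0 in glia-like and 34.4 and 17.7 in neuron-like cells, and their part in the levels was not tested. The difference in Ptger3 was not called in any of these classes without the library block (adjusted p = 0.17, 0.34 and 0.27), nor was Ptger4 in endothelial-like cells (adjusted p = 0.10). Hpgd had too few UMIs in the stroma for the fit.

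Within the assembloid epithelial libraries, where stromal and epithelial cells were captured together and counted by 1 version, fibroblast-like cells were higher than epithelial cells in 6 of 8 members tested and lower in 2, beside 29.9% of all genes higher and 25.2% lower. The largest differences were those of Ptgs1 (129 and 139.7 CPM, 6.95 ± 0.30 log2, edgeR, adjusted p = 1.5e-07) and Ptgs2 (6.74 ± 0.46, adjusted p = 1.4e-06). Ptgis and Ptges were higher by 5.16 and 3.88 on the log2 scale. The epithelium of this fit and of that of macrophage-like cells was the mean of 4 classes with equal weight, crypt-like, enteroendocrine-like, goblet-like and colonocyte-like cells. Some of these held 0 UMIs of Ptger2 and Ptger3, which were called higher too (edgeR, adjusted p = 0.0026 and 0.00060), so that no fold is given for them. Fibroblast-like cells held 8.59 and 6.53 CPM of Ptger2 and 8.59 and 10.47 of Ptger3, against 0.27 and 1.16 and 0.52 and 0.93 in all epithelial-gated cells, where 3 cells of replicate 2 held 120 of its 124 Ptger2 UMIs and 1 cell 56 of its 100 Ptger3 UMIs. Hpgd (-2.68 ± 0.39, adjusted p = 0.00025) and Ptger4 (-1.19 ± 0.27, adjusted p = 0.0040) were lower.

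Macrophage-like cells of the same libraries, 218 and 215 in number, were higher than epithelial cells in Ptgs1 (109 and 83.2 CPM, 6.27 ± 0.32 log2, edgeR, adjusted p = 2.4e-07), Ptgs2 (4.09 ± 0.52, adjusted p = 0.00013), Ptger2 (7.63 and 4.13 CPM, adjusted p = 0.015, with no fold for the same reason) and Ptger4 (24.8 and 48.2 CPM, 1.44 ± 0.22, adjusted p = 0.00051). They were lower in Hpgd (-1.38 ± 0.39, adjusted p = 0.017), and held 0 UMIs of Ptger3. Of all genes, 22.4% were called higher and 22.6% lower.

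Other genes of the pathway were read as 5 lists of 33 genes, of which 32 were in the matrices. Of 27 tested, 7 were higher and 4 lower in assembloid than in tissue epithelium, beside 26.6% and 23.1% of all genes. In organoid against tissue epithelium 5 were higher and 9 lower, beside 24.1% and 22.8%, and in organoid against assembloid epithelium 5 were higher and 10 lower, beside 24.2% and 28.5%.

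Among the genes called with a log2 change of at least 2, Pla2g5, a secreted phospholipase, was lower in assembloid than in tissue epithelium (-2.19 ± 0.25) and 4 were higher. These were Alox12, a lipoxygenase (2.51 ± 0.84), Tbxas1, thromboxane synthase (2.04 ± 0.48), Ggt5, which processes leukotriene C4, and Tbxa2r, the thromboxane receptor. Ggt5 had 0 and 1 UMI in tissue against 812 and 363 in assembloids, and Tbxa2r 0 and 1 against 73 and 27, so that no fold change is given for them. The fibroblast list, as given for Ptgs2, was also higher in assembloid than in tissue epithelium. In the captured cells of the same libraries, Tbxas1 stood at 108 and 181 CPM in macrophage-like cells, Ggt5 at 19.5 and 41.1 and Tbxa2r at 2.93 and 5.62 in fibroblast-like cells, and Alox12 at 1.17 and 3.95 in fibroblast-like cells. In epithelial cells with no fibroblast or macrophage list UMI all 4 were called higher as well (edgeR, adjusted p = 0.0056 for Tbxas1, 0.00025 for Ggt5, 0.0038 for Tbxa2r and 0.049 for Alox12). In organoids against tissue, Alox5ap (-3.48 ± 0.71), Alox5, 5-lipoxygenase (-2.17 ± 0.69), and Alox15, a lipoxygenase with 2 and 1 UMIs against 19 and 8, were lower. Ggt5 was higher with 21 and 19 UMIs, but was not called in cells with no fibroblast or macrophage list UMI (edgeR, adjusted p = 0.067). Ptgds, a prostaglandin D synthase, was called higher with 45 and 11 UMIs against 0 and 0, and Ptgfr, the prostaglandin F receptor, lower with 0 and 0 against 5 and 4. Slco2a1, the prostaglandin uptake transporter, was at 19.5 and 18.2 CPM in tissue, 1.31 and 1.13 in organoids and 19.9 and 11.4 in assembloids, lower in organoids than in tissue by 3.69 ± 0.37 (edgeR, adjusted p = 0.00014).

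Between organoids and assembloids, Slco2a1 (-3.85 ± 0.37), Ggt5 (-4.96 ± 0.52), Alox12 (-3.86 ± 0.87), Alox5ap (-2.85 ± 0.69), Tbxa2r (-2.87 ± 0.71) and Tbxas1 (-2.79 ± 0.48) were lower in organoids on the log2 scale. Also called lower were Alox15, with 2 and 1 UMIs against 20 and 5, and Ptgfr, with 0 and 0 against 6 and 1, while Ptgds was higher, with 45 and 11 against 2 and 0. In assembloid cells with no fibroblast or macrophage list UMI the differences were still called for Ggt5, Alox12, Alox5ap (-2.42), Tbxa2r (-2.62) and Tbxas1 (-3.03), but not for Alox15 (edgeR, adjusted p = 0.11). Alox5ap stood at 144 and 189 CPM in the macrophage-like cells of the assembloid libraries. How much of the epithelial level of these genes comes from stromal RNA was not tested. Apart from Slco2a1 these genes were at or below 5 CPM in the epithelial libraries of both groups.

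In tissue, all 5 genes of the list for transport and breakdown were called between colonocyte-like and crypt-like cells, 3 higher and 2 lower, in a contrast in which 31.5% of all genes were called higher and 31.1% lower. Slco2a1, which carries prostaglandins into cells ahead of their oxidation, was at 62.7 and 46.5 CPM in colonocyte-like and 8.26 and 5.48 in crypt-like cells (3.54 ± 0.15 log2, edgeR, adjusted p = 4.9e-12), and Abcc4, an exporter of prostaglandin E2, at 3.68 and 3.81 against 44.2 and 50.5 (-3.08 ± 0.18, adjusted p = 1.7e-10). The prostaglandin reductases differed in direction, with Ptgr2 (1.16 ± 0.13, from 47.7 and 41.1 against 28.7 and 30.6 CPM) and Zadh2 (1.02 ± 0.14, from 35.1 and 35.7 against 26.2 and 25.8 CPM) higher and Ptgr1 lower (-1.02 ± 0.18, from 6.13 and 8.35 against 21.7 and 21.1 CPM). As plain CPM ratios without TMM scaling, the log2 differences were 0.73 and 0.42 for Ptgr2, 0.42 and 0.47 for Zadh2 and -1.82 and -1.34 for Ptgr1. Those of Slco2a1 were 2.92 and 3.09 and those of Abcc4 -3.59 and -3.73, so that TMM scaling moved all 5 contrasts upwards. Cbr1, carbonyl reductase, was higher in the colonocyte-like cells of tissue by 2.08 ± 0.10 (edgeR, adjusted p = 2.1e-11). In assembloids Slco2a1 was at 18.6 and 10.9 CPM in colonocyte-like and 22.4 and 16.6 in crypt-like cells, and the contrast differed from that of tissue by -3.49 ± 0.20 on the log2 scale (edgeR, adjusted p = 1.2e-05). That of Abcc4 lay above that of tissue by 2.54 ± 0.21 (adjusted p = 6.5e-05). Over all lists, 13 of 17 genes tested were called in tissue, 7 higher and 6 lower, and 7 of 26 in assembloids, 5 higher and 2 lower, beside 16.5% and 12.0% of all genes.

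In macrophage-like cells of the assembloid libraries 10 of 26 were higher and 7 lower than in epithelial cells, beside 22.4% and 22.6% of all genes. Those higher by at least 2 on the log2 scale were Alox5ap (9.77 ± 0.40), Cysltr1, a leukotriene receptor (9.24 ± 0.43), Alox5 (7.88 ± 1.06), Tbxas1 (7.18 ± 0.26), Ptgir, the prostacyclin receptor (5.18 ± 1.05), Ltb4r1, a leukotriene B4 receptor (4.85 ± 1.14), Hpgds (4.72 ± 0.27), Prxl2b, a prostaglandin F synthase (3.94 ± 0.11), Ltc4s (3.13 ± 0.49) and Pla2g4a, the cytosolic phospholipase (2.12 ± 0.17). Where epithelial UMIs are few the fitted change depends on the prior count, as with 36 and 21 UMIs of Alox5, 44 and 8 of Cysltr1 and 29 and 1 of Ptgir in all epithelial-gated cells. Cbr1 (-2.27 ± 0.23) and Pla2g10, a secreted phospholipase (-2.20 ± 0.32), were lower. In fibroblast-like cells of the same libraries 9 of 26 were higher and 8 lower, beside 29.9% and 25.2% of all genes.

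In the stroma, 3 of 19 were higher and 3 lower in telocyte-like against trophocyte-like cells (6.15% and 7.64% of all genes), 3 and 7 in endothelial-like (16.2% and 15.6%), 3 and 2 in glia-like (14.9% and 11.8%) and 3 and 2 in neuron-like cells (23.3% and 21%), and 0 in contractile-like cells by edgeR (1.54% and 0.32%), where 2 had an unadjusted p under 0.05. Endothelial-like cells were higher in Ltc4s (5.45 ± 0.35) and lower in Ptgir (-4.09 ± 1.32), Pla2g4a (-2.63 ± 0.35) and Ggt5 (-2.51 ± 0.54).

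The genes whose levels were most like those of a member were ranked over 42 sums of a library and class of at least 50 cells each, as Pearson's r of log2(CPM + 1) among 11456 genes with a mean of at least 5 CPM. These sums share libraries and group mostly into stroma and epithelium, which any stromal or epithelial gene follows. Ptgs2 was most like Saa3 (0.96), an acute-phase serum amyloid, and Ccl7 (0.93), a chemokine. Ptges was most like Inhba (0.94), the activin A subunit, Ptgis most like Kcnj8 (0.98), and Hpgd most like Slc6a14 (0.95), an amino acid transporter, and Ccl28 (0.95), an epithelial chemokine. Ptger3 was most like Arhgap20 (0.91), Ptger1 most like Gaa (0.91) and Ptger2 most like Dnmt3l (0.94), with Ptgs1 at 0.92. Ptger4 had no close match, with Mcoln2 first at 0.81.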

How the data were processed

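Each library was made with the 10x Genomics 3′ version 3 kit, sequenced, and counted by the authors with Cell Ranger (6.0.1 for stroma and 7.1.0 for epithelium per the file headers, 6 and build mm10 per the labels). The deposited matrices hold raw UMI counts per gene and called cell barcode, without normalization. Whether intron reads were counted is not given in the sources used here. Cells with fewer than 500 genes or more than 10% of counts from mitochondrial genes were left out. Classes were gated on fixed marker lists, with 3 to 7 detected markers required, numbers that were set after the counts had been seen. For colonocyte-like and goblet-like cells, the list's share of UMIs also had to reach 2 times the median of the library's epithelial-gated cells. This cut was thus set per library and is not the same absolute share in tissue and in assembloids. Doublets were not called, and an alternative left out the 6% of cells with most UMIs. UMIs were summed per library and class and tested with edgeR 4.0.16 (quasi-likelihood, TMM, its filter on low counts, Benjamini-Hochberg adjusted p under 0.05 over all genes), with the group alone for the epithelial libraries and the library as a block between classes. DESeq2 1.42.0, R 4.3.3, limma 3.58.1, pandas 2.3.3, scipy 1.17.1 and numpy 2.4.6 under Python 3.11.15 were used. The fits were tested on simulated data. Poisson and binomial intervals are exact, at 95%, and cover counting error only, and the floor for a count of 0 is 3 UMIs. Positions are from GENCODE M21 on GRCm38, promoters from RefSeq GRCm38.p6. Pathway genes were named when called with a log2 change of at least 2 between epithelia, or in endothelial-like or macrophage-like cells, and further ones of the transport and breakdown list and in tuft-like cells after their values were seen. Ratios without 1 library were added after the data were seen. The members, lists and tests were chosen with earlier results of these data known. The gene most like Ptgs1 is not reported here.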

Additional observations from a re-analysis of the deposited data

Results flagged for a closer look

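For 3 members the contrast of colonocyte-like with crypt-like cells differed between assembloids and tissue in a test of the difference itself (edgeR over the 2 libraries of each group, a test added after the data were seen).

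For Ptger4 the contrast was 1.64 ± 0.23 higher (log2) in assembloids than in tissue, with an adjusted p of 0.00091. Colonocyte-like cells were the lower class in both tissue libraries and the higher class in both assembloid libraries. The difference ranged from 1.58 to 1.96 over the 5 alternatives, all called.

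For Hpgd the contrast was 0.68 ± 0.19 higher in assembloids, with an adjusted p of 0.023. Colonocyte-like cells were higher in all 4 libraries, by 1.62 and 1.25 as plain log2 CPM ratios in tissue and by 2.50 and 1.93 in assembloids. The difference ranged from 0.63 to 0.72 over the alternatives.

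For Ptger3 the contrast was -2.50 ± 0.72 in assembloids relative to tissue, with an adjusted p of 0.029. It rests on few UMIs, since assembloid colonocyte-like cells held 0 and 4 and crypt-like cells 35 and 66, of which 56 came from 1 cell. With 1 more marker required for each class the difference was 0.61, and DESeq2 did not call it.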

How the results depend on the processing

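Over the alternatives, the log2 fold changes of called members were counted as the same in 501 cases, as losing the call in 27, as moved in 53 and as reversed in 1. The reversed one was Ptger3 in the test between assembloid and tissue contrasts (0.61 with 1 more marker). The same means the same direction and side of the threshold. Between classes with 1 library left out there is no test. There, the same means the same direction and a shift below the standard error of the main fit, and moved means a larger shift. Changes not called that turned sign were Hpgd in organoids against assembloids (-0.71 to 0.22 with 1 organoid library left out), Ptges in organoids against tissue (0.24 at up to 5% mitochondrial counts, -0.60 to 0.25 with 1 organoid library left out), Ptger1 in organoids against assembloids (-0.12 with all kept cells) and Ptger4 in neuron-like cells (-0.045 without the 6% of cells with most UMIs). With 1 more marker they were Ptger3 (0.77), Ptgs1 (0.13) and Ptgs2 (0.093) in assembloid colonocyte-like cells, Ptges (-0.082), Ptgs1 (-0.076) and Ptgs2 (0.26) in telocyte-like cells and Ptger1 (0.66), Ptger3 (-0.11) and Ptgs2 (-1.34) in contractile-like cells. Without the 6% of cells with most UMIs they were Ptger2 (0.14) and Ptgs2 (-0.013) in contractile-like and Ptgs2 (0.029) in telocyte-like cells. The cause of these turns was not tested.

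Counts of all genes called moved by more than 1.5 times in these cases. Assembloid colonocyte-like against crypt-like cells went from 4283 to 2692 without a replicate block, the test between contrasts from 3340 to 2169 with DESeq2, telocyte-like against trophocyte-like cells from 1683 to 354 without a replicate block and 678 with 1 more marker, and contractile-like cells from 227 to 514 with DESeq2, 734 without the filter on low counts, 56 without a replicate block and 142 with 1 more marker. Leaving out 1 library gave 5234 to 10175 calls between assembloids and tissue (9513 with all), 5116 to 9693 between organoids and tissue (8993) and 7763 to 9815 between organoids and assembloids (10105). Between classes a left-out library leaves no residual degrees of freedom, so those values carry no test.

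Same-numbered epithelial libraries did not deviate together (correlations -0.02, 0.05 and -0.02). These values do not settle whether same-numbered libraries share an animal or a run. With a replicate block the epithelial counts were 9384, 8846 and 9958. The contrast of tuft-like cells was not run, as 1 library held fewer than 20. RLE size factors moved the median of all genes in macrophage-like cells from -0.12 to 0.02 and turned no called member. Shares of cells depend on depth, for example 25.3% thinned against 44.0% unthinned for Hpgd in tissue. Low depth limits several members, for example Ptger1 with 25 to 66 epithelial UMIs a library and Ptgs2 with 1 and 0 in tissue.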

Other observations

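In assembloid epithelium, single cells held a large share of some genes. Cells with a gene of at least 50 UMIs that made up at least 50% of that gene's UMIs in the epithelial-gated cells of the library numbered 114 (0.434%) and 183 (2.68%) in the assembloid libraries. In the other 6 libraries 2 to 5 cells did so, 0.0466% to 0.0823% of the epithelial-gated or fibroblast-like cells. The crypt-like cell with 115 of the 124 Ptger2 UMIs of assembloid replicate 2 held 25583 UMIs and 3994 genes, 31 UMIs of the cycling list and 0 of the fibroblast and macrophage lists. It also held 217 UMIs of Prokr2, a prokineticin receptor, 85 of Trpc4, a cation channel, and 66 of Gm4117, each more than all other epithelial cells of the library together.

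Enteroendocrine-like cells of tissue, 52 and 103 in number, held 215 and 122 CPM of Hpgd.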
